A study of Mus musculus with 8 samples.

Results

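CXC chemokines are small secreted proteins that steer leukocytes through tissue, and the 10 genes described here (Cxcl1, Cxcl2, Cxcl3, Cxcl5, Cxcl9, Cxcl10, Cxcl11, Cxcl13, Cxcl14 and Cxcl16) were taken by name, with every array probe whose transcript belongs to one of them. The gene table used here paired 10 of the 39429 gene probes with 9 of the 10 genes: 1 probe each, and 2 probes for Cxcl9. It paired no probe with Cxcl11, which was not analysed here. Of these 9 genes, 8 entered the tests, and Cxcl3 did not, because its probe was well above background on 3 of 4 arrays of either genotype.

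The data were 8 single-colour Agilent expression arrays of mouse macrophages, 4 from wild-type mice (WT) and 4 from mice with a knockout of EP2 (EP2KO), the product of Ptger2 and one of the receptors through which prostaglandin E2 acts. Both groups of mice had received LPS, an endotoxin of bacteria sensed by macrophages through Toll-like receptor 4, so there were no animals without LPS. The tissue of origin, the age and strain of the mice, the dose and time of LPS and the extent of the knockout are not given in the sources used here. The series title concerns EP2, macrophages and repair of the heart, and the comparison asks which transcripts differ when the receptor is lacking.

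The signal of a probe is given relative to the 75th percentile of its array, so that 1 stands for that percentile, and differences are on the log2 scale. Values are listed in the order of the replicate numbers 1 to 4, and relative signals of different probes cannot be compared with each other. Arrays with replicate numbers 1 and 2 of both genotypes shared slide 1, and those with numbers 3 and 4 shared slide 2. Over all features the slides were parted by the first principal component, with 61.0% of the variance. On each slide the WT samples lay at positions 1 and 2 and the knockout samples at positions 3 and 4, and array position and genotype cannot be told apart. Signal of Ptger2 ran from 0.899 to 1.12 in WT and from 0.224 to 0.357 in EP2KO, and the sources used here do not say if its probe lies within the deleted stretch. The macrophage identity list had 15 of its 16 markers measured, with Cd68 not paired to a probe, and all 15 were well above background on all 8 arrays. Its summed relative signal was 502 to 829 in WT and 607 to 734 in EP2KO. The labels call the mice male, whereas both probes of Xist, a transcript of the inactive X chromosome, were well above background on all 8 arrays, and 4 of 5 Y-linked probes were so on 0 arrays and the other on 1. As this held for all 8, no result could be given without the arrays concerned. The labels do not say that arrays of a group came from separate mice, so the p-values measure the spread between these samples, which may be technical, and the number of arrays limits their precision.

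As background, CXC chemokines carry a pair of cysteines parted by 1 residue and act on G protein-coupled receptors. Cxcl1, Cxcl2, Cxcl3 and Cxcl5 bind Cxcr2 and draw neutrophils. Cxcl9, Cxcl10 and Cxcl11 are induced by interferons, bind Cxcr3 and draw activated T and NK cells. Cxcl13 binds Cxcr5 and draws B cells, and Cxcl16, made as a membrane protein, binds Cxcr6. In macrophages given LPS, the transcription factor NF-κB and a second wave of type I interferon switch on many of these genes.

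The promoters of the LPS-inducible members are shown because Cxcl1 and Cxcl2, and Cxcl9 and Cxcl10, were the members whose signals ran most alike over the arrays. The RefSeq table of GRCm38.p6 held the promoters of 7 of the 10 genes, and not those of Cxcl5, Cxcl11 and Cxcl16. Each line gives the 250 bases before the annotated start, 5′ to 3′ on the gene's own strand. Capitals mark matches to the κB consensus (GGGAATTTCCC, GGGAAATTCC or GGGACTTCCC here) and, in Cxcl10, a match to the interferon-stimulated response element (GAAAGTGAAA), searched as GAAA, any 2 bases and GAAA. The windows are chr5:90890995-90891244 on the plus strand for Cxcl1, chr5:90903649-90903898 on the plus strand for Cxcl2, chr5:90785851-90786100 on the plus strand for Cxcl3, chr5:92348890-92349139 on the minus strand for Cxcl10 and chr5:92328080-92328329 on the minus strand for Cxcl9.
Cxcl1: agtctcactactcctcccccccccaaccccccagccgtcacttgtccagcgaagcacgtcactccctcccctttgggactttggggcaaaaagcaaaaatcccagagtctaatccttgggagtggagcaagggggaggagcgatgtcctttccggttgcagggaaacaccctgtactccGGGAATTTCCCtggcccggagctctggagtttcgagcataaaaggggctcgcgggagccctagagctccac
Cxcl2: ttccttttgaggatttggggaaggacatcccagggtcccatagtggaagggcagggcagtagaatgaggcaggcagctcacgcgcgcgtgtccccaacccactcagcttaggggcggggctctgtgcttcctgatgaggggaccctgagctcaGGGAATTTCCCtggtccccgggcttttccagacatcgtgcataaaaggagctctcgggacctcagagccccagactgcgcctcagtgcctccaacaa
Cxcl3: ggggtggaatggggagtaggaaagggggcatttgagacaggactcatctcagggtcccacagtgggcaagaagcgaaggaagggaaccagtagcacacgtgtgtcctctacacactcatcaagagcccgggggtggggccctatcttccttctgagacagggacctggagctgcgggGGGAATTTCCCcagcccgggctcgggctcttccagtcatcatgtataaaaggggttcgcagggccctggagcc
Cxcl10: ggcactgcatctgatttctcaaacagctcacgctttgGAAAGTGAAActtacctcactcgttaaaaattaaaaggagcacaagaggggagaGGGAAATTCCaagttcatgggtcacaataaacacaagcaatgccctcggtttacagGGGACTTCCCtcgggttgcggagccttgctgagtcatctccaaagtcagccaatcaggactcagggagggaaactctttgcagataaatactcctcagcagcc
Cxcl9: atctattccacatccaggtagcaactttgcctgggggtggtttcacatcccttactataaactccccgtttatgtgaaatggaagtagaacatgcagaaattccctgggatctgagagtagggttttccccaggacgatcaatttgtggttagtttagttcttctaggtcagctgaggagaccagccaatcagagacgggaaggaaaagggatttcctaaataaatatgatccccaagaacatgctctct
Both strands were searched. The κB consensus was found in 4 of the 7 promoters, and 3.9% of all 32851 RefSeq windows of the same length hold it. In Cxcl1, Cxcl2 and Cxcl3 it was the same run of 11 bases, which matches on both strands and begins 71, 97 and 73 bases before the start. In Cxcl10 there were 2 separate matches, beginning 159 and 103 bases before the start. The interferon-stimulated response element, which 2.98% of windows hold, began 213 bases before the start of Cxcl10 and 172 bases before that of Cxcl14. TTCNNNGAA, a pattern of STAT factors, was found in Cxcl14 (7.02% of windows). TGACG, which forms part of the cyclic AMP response element through which EP2 can act, was found in Cxcl1 on the minus strand, 215 and 194 bases before the start (17.8% of windows). The whole palindrome TGACGTCA, which contains TGACG and is held by 1.55% of windows, matched none of the 7. TATAAA was found in Cxcl3, Cxcl9 and Cxcl13, and in 12.4% of windows. These are matches of letters in a window, not evidence of a site.

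Among the chemokines that bind Cxcr2, Cxcl1 and Cxcl2 were lower on slide 2 than on slide 1 in both genotypes, and neither genotype stood apart from the other over all 8 arrays. Cxcl1, a neutrophil attractant made early after LPS, had relative signals of 0.308, 0.344, 0.212 and 0.139 in WT and of 0.455, 0.505, 0.191 and 0.188 in EP2KO. On slide 1 both knockout values lay above both WT values, and on slide 2 they lay between them. Cxcl2, which shares this receptor and is made by macrophages themselves, had 0.282, 0.293, 0.203 and 0.0941 in WT and 0.310, 0.384, 0.136 and 0.100 in EP2KO. The order of the genotypes for Cxcl2 was the same as for Cxcl1 on slide 1, and the values overlapped on slide 2. The log2 difference between EP2KO and WT, fitted with the slide as a block, was 0.35 ± 0.16 for Cxcl1 (SE, 95% interval -0.03 to 0.74) and 0.01 ± 0.26 for Cxcl2 (-0.61 to 0.63). In these bulk RNA samples, fewer cells of a type and less RNA per cell cannot be told apart.

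Cxcl3, the third close relative of this group, was lower on every array of slide 2 than on any of slide 1. Its relative signals were 0.131, 0.0160, 0.0134 and 0.00301 in WT and 0.227, 0.336, 0.0117 and 0.00657 in EP2KO. WT 4 and EP2KO 4 were not well above background. On slide 1 both knockout values exceeded both WT values, and WT 2 was far below WT 1. With no filter on dim probes the log2 difference between EP2KO and WT was 1.53 ± 1.60 (SE), with a limma adjusted p of 1, and the difference of slide 2 minus slide 1 was -3.91 ± 0.85 (limma adjusted p = 0.0169). That slide 2 level includes 2 of 4 arrays that were not well above background, so the size of the difference is uncertain. Cxcl3 is left out of the counts over the 8 tested members.

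Cxcl5 was the 1 member of the 8 whose genotypes did not overlap. This ligand of Cxcr2 is made in mice by epithelial cells, platelets and stromal cells as well as by macrophages. Its relative signals were 0.609, 0.368, 0.478 and 0.666 in WT and 0.265, 0.272, 0.0468 and 0.00808 in EP2KO. All EP2KO values were below all WT values, as for 0.951% of all features, and the 2 knockout arrays of slide 2 were far below those of slide 1. EP2KO differed from WT by -2.84 ± 1.08 log2 units (SE, 4 arrays per genotype), with an unadjusted p of 0.0307 and an adjusted p of 1 in limma. With the slide as a block the same difference had an SE of 0.91 and a limma adjusted p of 0.508. The difference was -0.82 on slide 1 and -4.86 on slide 2, and -1.78 over both slides without EP2KO 4. EP2KO 4 was called well above background, but its 0.00808 lay near the lowest such signal of that array, 0.00762. The size of the slide 2 difference is therefore uncertain. In the series Cxcl5 varied most like Susd4 (Pearson r = 0.99 over 8 arrays) and C3, a complement component (r = 0.99). The 8 points of every such correlation share 2 slides and 2 genotypes.

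The chemokines that bind Cxcr3 were lower on slide 2 than on slide 1. Cxcl9, which is induced mainly by interferon gamma, had relative signals of 0.144, 0.190, 0.0274 and 0.0147 in WT and of 0.0601, 0.0884, 0.00687 and 0.00236 in EP2KO at its brighter probe. On either slide both EP2KO values lay below both WT values, but the WT values of slide 2 lay below the EP2KO values of slide 1. EP2KO 3 and EP2KO 4 were not well above background at this probe. The log2 difference was -1.75 ± 1.35 (SE), and -1.75 ± 0.42 with the slide as a block (unadjusted p = 0.00427, limma adjusted p = 0.299). It was -1.18 on slide 1. On slide 2 the EP2KO level at this probe is only a rough bound, and against it EP2KO was 2.55-fold lower than WT. For each dim array, its own value or the array's lowest signal well above background was used, whichever was higher. That lowest signal is not a strict limit. It was 0.00762 on EP2KO 4, where the second Cxcl9 probe was not well above background at 0.00911.

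The second Cxcl9 probe was also lower in EP2KO on both slides. Its relative signals were 0.0609, 0.0915, 0.0225 and 0.0132 in WT and 0.0298, 0.0293, 0.0128 and 0.00911 in EP2KO, of which EP2KO 4 was not well above background. Its EP2KO values were again below the WT values of the same slide. The log2 differences at this probe were -1.34 on slide 1 and -0.67 on slide 2, so that the slide 1 difference was the larger here and the smaller at the brighter probe.

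Cxcl10, which is induced by type I interferon and by NF-κB, had relative signals of 1.11, 0.504, 0.378 and 0.287 in WT and of 0.692, 1.13, 0.100 and 0.0354 in EP2KO. The genotypes overlapped on slide 1, and on slide 2 both EP2KO values were below both WT values. The log2 difference with the slide as a block was -1.11 ± 0.64 (SE, limma adjusted p = 0.859), and it was 0.24 on slide 1 and -2.47 on slide 2. Its limma adjusted p on slide 2 alone was 0.129. Cxcl10 and Cxcl9 correlated at r = 0.93 over the 8 arrays, and Cxcl1 and Cxcl2 at 0.94.

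**Figure D1:**
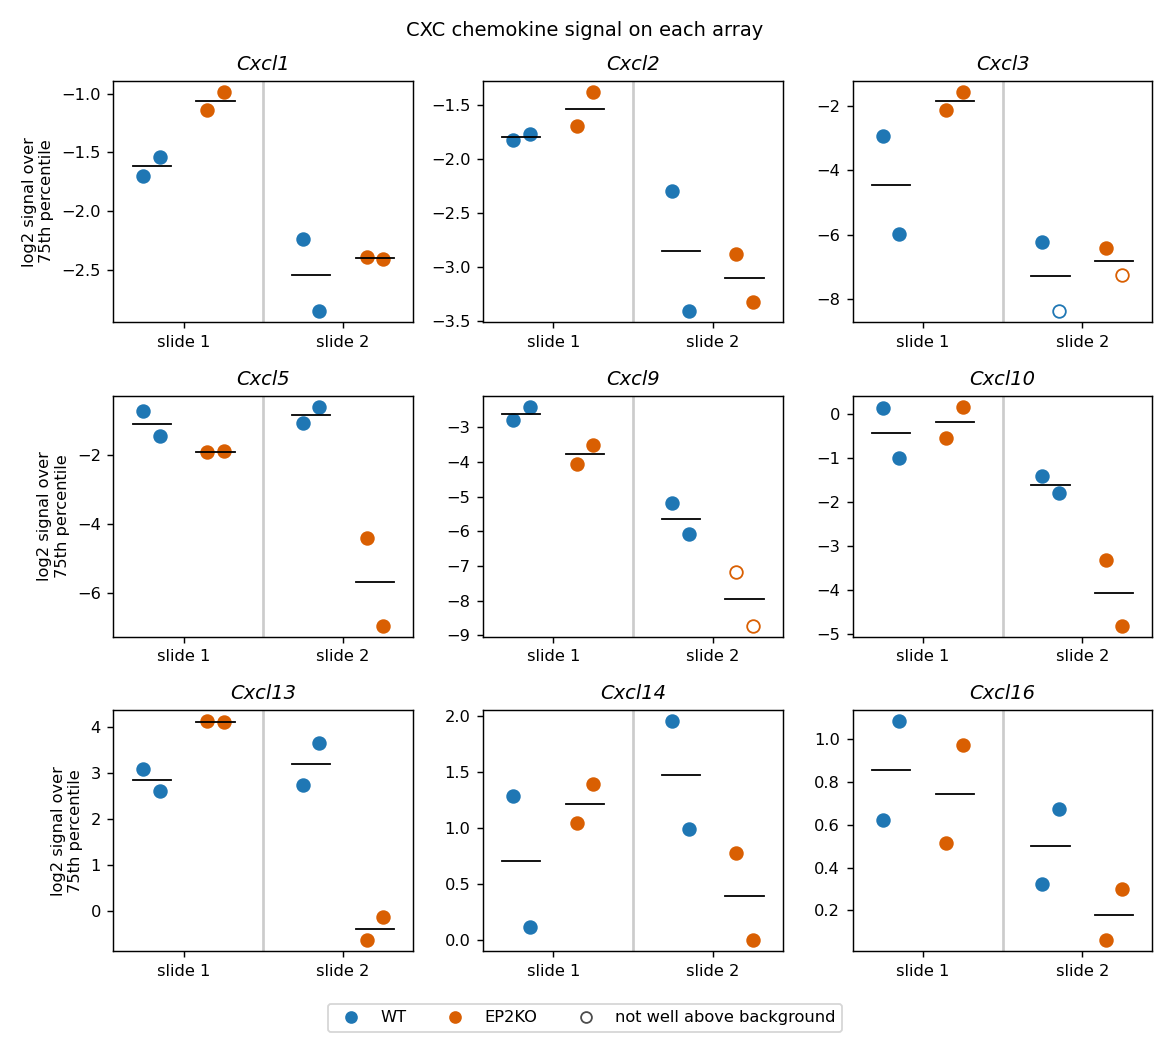
Log2 signal of each CXC chemokine relative to the 75th percentile of its array (vertical axes, scaled per gene), by slide, with WT in blue and EP2KO in orange. Each point is 1 array, horizontal lines are means of 2 arrays, and open points were not well above background; the Cxcl13 points of EP2KO lie above WT on slide 1 and below WT on slide 2.

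Cxcl13 changed its order between the slides. This B cell attractant is made by resident macrophages of body cavities and by stromal cells. Its relative signals were 8.41, 6.04, 6.66 and 12.5 in WT and 17.4, 17.2, 0.641 and 0.912 in EP2KO. Both EP2KO values of slide 1 were above all 4 WT values, and both of slide 2 were below all 4. The log2 difference was 1.28 ± 0.21 on slide 1 (SE, n = 2 per genotype, limma adjusted p = 0.284) and -3.58 ± 0.37 on slide 2 (limma adjusted p = 0.0472). Over all 8 arrays it was -1.15 ± 1.17, a mean of opposite values. The difference between the slides in the EP2KO minus WT value was -4.86 ± 0.48, with a 95% interval of -6.03 to -3.69, an unadjusted p of 4.25e-05 and a limma adjusted p of 0.067. This adjusted p ranged from 0.0278 to 0.337 over 12 other settings and passed in 3 of them, namely without WT 1 (0.0278), without WT 4 (0.0422) and with only probes well above background on all 8 arrays (0.0467). Ppl, which encodes periplakin, had the pattern most like that of Cxcl13 (r = 0.98 over 8 arrays).

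Cxcl14 and Cxcl16 passed neither the test between genotypes nor that between slides, except that Cxcl16 passed between slides without WT 1 (-0.57, limma adjusted p = 0.043). Cxcl14, a chemokine of epithelia and fibroblasts whose receptor is debated, had relative signals of 2.44, 1.09, 3.88 and 1.99 in WT and of 2.06, 2.63, 1.72 and 0.999 in EP2KO. The genotypes overlapped on slide 1 and did not on slide 2, where EP2KO was lower. The log2 difference with the slide as a block was -0.28 ± 0.45 (SE, 95% interval -1.35 to 0.78), with 0.52 on slide 1 and -1.08 on slide 2. Cxcl16, which on the cell surface also acts as a scavenger receptor, had 1.54, 2.12, 1.25 and 1.60 in WT and 1.43, 1.96, 1.04 and 1.23 in EP2KO. Its genotypes overlapped on slide 1, and on slide 2 the EP2KO values lay just below those of WT. The log2 difference of Cxcl16 with the slide as a block was -0.21 ± 0.17 (SE, 95% interval -0.62 to 0.19). Cxcl14 and Cxcl16 were also the pair that ran least alike (r = -0.08 over 8 arrays).

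Of the 8 tested chemokines, 0 passed limma's test of EP2KO against WT at an adjusted p under 0.05, against 0.00964% of all 20738 features. At an unadjusted p under 0.05 there was 1, Cxcl5 (background 1.98%). With the slide as a block 0 passed (background 0.0193%) and 2 had an unadjusted p under 0.05, Cxcl5 and Cxcl9 (background 7.34%). Cxcl9 entered the tests through WT, with its probe well above background on 4 of 4 WT and 2 of 4 EP2KO arrays. Its dim EP2KO values of slide 2 are also in the counts with the replicate block and on slide 2 alone. The count was also 0 with the replicate number as a block (background 0%), where 2 had an unadjusted p under 0.05 (background 5.45%). The members' differences were below 0 for 6 and above 0 for 2 of the 8, with a median of -0.70. Of all features 43.4% were above 0, and their median was -0.03. On slide 1 alone 0 of 8 passed (background 0%), 4 had an unadjusted p under 0.05 (background 12.2%) and the median was 0.25. On slide 2 alone 1 of 8, Cxcl13, passed and was lower (0.993% of all features were called lower), 4 had an unadjusted p under 0.05 (background 16.6%) and the median was -1.70. The members Cxcl2, Cxcl10, Cxcl13 and Cxcl14 had differences of opposite sign on the slides, and 63.7% of all features did. On slide 1 the EP2KO values lay above those of WT for 3 of the 8 (15.6% of all features) and below for 2 (33.9%). On slide 2 they lay below for 6 (21.4%) and overlapped for 2.

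**Figure D2:**
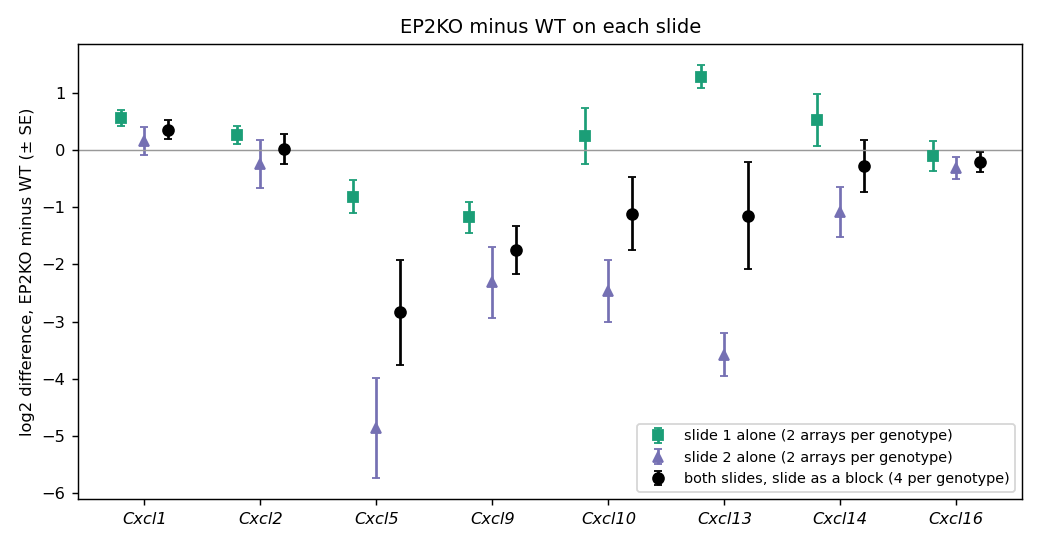
Log2 difference of EP2KO minus WT (vertical axis) for the 8 tested CXC chemokines, on slide 1 alone (green squares), on slide 2 alone (purple triangles) and over both slides with the slide as a block (black circles), each with its SE. Cxcl13 lies at 1.28 on slide 1 and -3.58 on slide 2, and the slide 2 value is below the slide 1 value for all 8 genes.

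In the test of the genotype difference between the slides, all 8 members had a lower value on slide 2 than on slide 1. The median was -1.37 against 0.14 over all features, of which 62% had a higher value on slide 2. The slide 2 minus slide 1 value of Cxcl2 turned above 0 when WT 3 was left out. That of Cxcl16 did so when WT 1 or EP2KO 2 was left out. The value of Cxcl9 rests on the probe with 2 dim arrays, and its second probe had the smaller EP2KO minus WT difference on slide 2, as given above. Of the 8, 0 passed limma's adjusted threshold (background 0.0145%) and 3 had an unadjusted p under 0.05 (background 21.1%). These were Cxcl13, Cxcl5 with -4.04 ± 1.08 (SE, limma adjusted p = 0.138) and Cxcl10 with -2.71 ± 0.83 (limma adjusted p = 0.16). The Cxcl5 value includes the dim signal of EP2KO 4 and was -2.77 without that array. The other members ran from -1.60 for Cxcl14 to -0.21 for Cxcl16.

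Between the slides themselves, with genotype in the model, 4 of the 8 chemokines passed limma's test and were lower on slide 2, where 18.2% of all features were lower by the same test. The log2 difference of slide 2 minus slide 1 was -3.61 ± 0.42 for Cxcl9 (SE, 4 arrays per slide, limma adjusted p = 0.000775) and -2.54 ± 0.64 for Cxcl10 (limma adjusted p = 0.0173). It was -1.31 ± 0.26 for Cxcl2 (limma adjusted p = 0.00705) and -1.13 ± 0.16 for Cxcl1 (limma adjusted p = 0.00183). For these 4 genes every array of slide 2 lay below every array of slide 1, as for 18% of all features. Cxcl9 includes the 2 arrays with only a bound, and its second probe had a slide difference of -1.78. The values of Cxcl13 (-2.07 ± 0.94), Cxcl5 (-1.77 ± 0.91), Cxcl16 (-0.46 ± 0.17) and Cxcl14 (-0.03 ± 0.45) did not pass. The median of the 8 was -1.54, and that of all features was 0.06. With the normexp background correction Cxcl10 passed (limma adjusted p = 0.0427) and Cxcl1, Cxcl2 and Cxcl9 did not, and without EP2KO 1 Cxcl10 missed the threshold with all other settings as before (limma adjusted p = 0.0528).

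**Figure D3:**
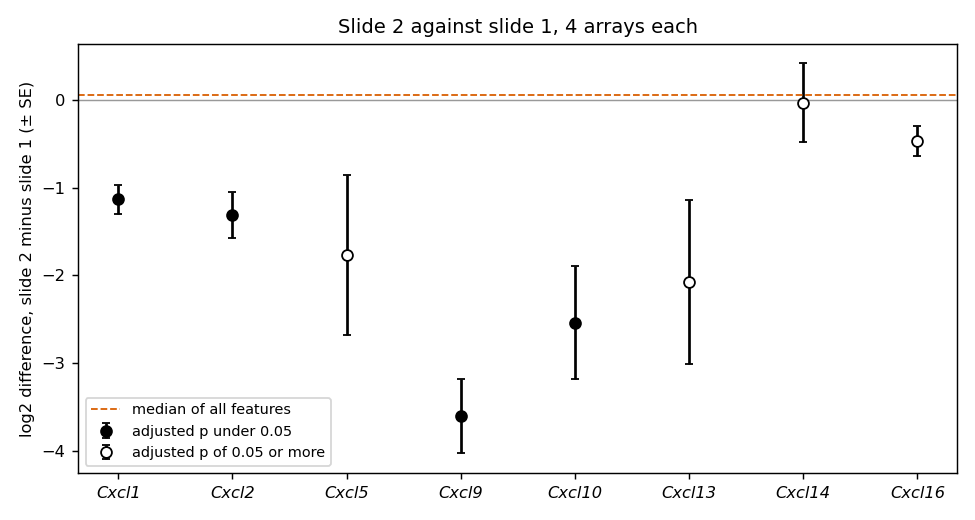
Log2 difference of slide 2 minus slide 1 (vertical axis, with SE, 4 arrays per slide, genotype in the model) for the 8 tested CXC chemokines. Filled points, Cxcl1, Cxcl2, Cxcl9 and Cxcl10, had a limma adjusted p under 0.05, and the dashed line at 0.06 is the median of all features.

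Markers of other cell types were measured beside the chemokines, and in limma 0 markers of any cell type passed the genotype test, with or without the slide as a block. Of the 20 fibroblast and mesothelium markers 19 were tested, with Muc16 left out, and 18 were well above background on all 8 arrays, so these defining markers were not at 0. Their summed relative signal was 98.1, 25.2, 127 and 141 in WT and 60.2, 98.8, 26.6 and 5.22 in EP2KO. EP2KO 3 and EP2KO 4 were far below the WT arrays of their slide, and WT 2 was low as well. On slide 2 all 19 had a lower value in EP2KO than in WT, with a median of -3.40, and on slide 1 17 had a higher one, with a median of 1.02. Between the slides 1 of the 19, Thy1, passed and was lower on slide 2 (18.2% of all features were called lower). With the slide as a block 2 of the 19 had an unadjusted p under 0.05 for genotype (7.34% of all features), both lower in EP2KO. Thy1 (-1.24 ± 0.19 with the slide as a block), Igfbp6 (-1.85 ± 0.72) and Dcn (-1.82 ± 1.02), which encode a surface glycoprotein, a binding protein of insulin-like growth factors and decorin, had the smallest unadjusted p. Thy1 and Igfbp6 were the 2 markers lower in EP2KO on slide 1 (-1.06 and -0.10). They do not stand for the list there. On slide 2 the markers of this list had their low values on the 2 arrays where Cxcl13, Cxcl5 and Cxcl10 were low, and their part in the result was not tested.

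Most lymphocyte markers were lower on slide 2. The 11 B cell markers, all well above background on all 8 arrays, summed to 19.9 to 96.7 in WT and 8.55 to 97.5 in EP2KO. Of these 8 were lower and 1 higher on slide 2 by limma's test, with a median slide difference of -3.17. Of all features 18.2% were called lower and 25.1% higher by this test. For genotype 7.34% of all features had an unadjusted p under 0.05 in limma with the slide as a block, in either direction. These shares stand beside the counts of every list in this paragraph. The 18 T and NK cell markers summed to 45.4, 42.9, 20.0 and 22.0 in WT and 32.3, 22.7, 30.2 and 31.4 in EP2KO. In EP2KO this sum did not fall on slide 2, and it lay above that of WT there. A sum follows its brightest genes, and Il7r was the marker called higher on slide 2 (3.83 ± 0.19). The list median, with each gene centred on its mean, went the other way. In EP2KO it was 0.40 and 0.23 on slide 1 and -1.50 and -1.08 on slide 2, below WT there (-0.86 and -0.73). Of the 18 markers, 14 were lower and 1 higher on slide 2, with a median of -2.33. The median difference of the 18 between EP2KO and WT was -0.83, and 0 of 18 passed the genotype test. With the slide as a block 13 had an unadjusted p under 0.05 and a lower value in EP2KO, and 1 had a higher one. Of the 18 markers, 16 were well above background on all 8 arrays. Bcl11b was so on 2 of 4 EP2KO arrays and Cd8a on 3 of 4. Both entered the tests through WT, and both are among the 13. Large peritoneal macrophage markers summed to 90.5 to 223 in WT and 113 to 244 in EP2KO, and 10 of 12 were lower on slide 2. Of these 12, 7 had an unadjusted p under 0.05 for genotype with the slide as a block, all 7 higher in EP2KO, and the median difference was 1.15. Of the 14 neutrophil markers 12 were tested, without Ly6g and Ngp, with sums of 64.1 to 163 in WT and 68.7 to 133 in EP2KO. Of these 12, 6 were lower and 2 higher on slide 2. Of 7 mast cell markers 6 were tested, without Ms4a2, and summed to 1.05 to 17.5 in WT and 7.66 to 29.2 in EP2KO. All 6 were lower on slide 2, with a median of -2.61, and all 6 had a higher value in EP2KO at an unadjusted p under 0.05 with the slide as a block, with a median of 1.96. The part of these lists in the slide differences of Cxcl1, Cxcl2, Cxcl9 and Cxcl10 was not tested.

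Epithelial markers, which bear on Cxcl5, were tested for 9 of 10 genes, without Vil1, and 7 of the 9 were well above background on all 8 arrays. Their summed relative signal was 21.6, 2.66, 0.919 and 2.74 in WT and 1.25, 1.26, 1.16 and 0.778 in EP2KO. WT 1 stood far above the other arrays, and WT 3 lay among the EP2KO values. With the slide as a block 3 of the 9 had an unadjusted p under 0.05 for genotype (7.34% of all features), all lower in EP2KO. Krt20, a keratin of gut epithelium, had -4.75 ± 1.29 (SE) and Epcam, an epithelial adhesion molecule, -1.87 ± 0.55. Fabp2, an intestinal fatty acid binding protein, had -4.75 ± 1.56. Krt20 was well above background on 2 of 4 EP2KO arrays and Epcam on 3 of 4. The median over the 9 was -0.51, 0 of 9 passed between the slides, and the part of these markers in the Cxcl5 values was not tested.

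**Figure D4:**
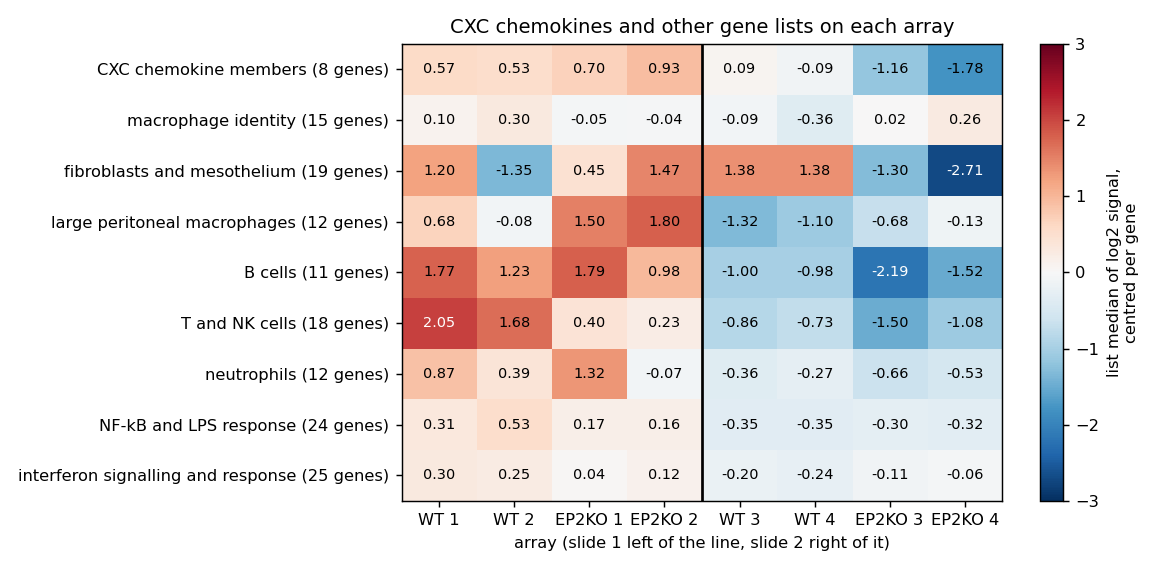
Median log2 signal of each gene list on each array, after centring each gene on its mean over the 8 arrays (colour and number), with slide 1 to the left of the black line and slide 2 to its right. The CXC chemokines run from 0.93 on EP2KO 2 to -1.78 on EP2KO 4, the fibroblast and mesothelium markers from 1.47 to -2.71 on these arrays, and the macrophage identity markers stay between -0.36 and 0.30.

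The receptors of the CXC chemokines were measured for 7 of 8 genes, all well above background on all arrays, and Ackr1 was left out as too dim. For genotype 0 of 7 passed, 4 of 7 had an unadjusted p under 0.05 with the slide as a block (7.34% of all features), 3 of them lower and 1 higher in EP2KO, and the median difference was -0.29. Cxcr2, the neutrophil receptor of Cxcl1, Cxcl2 and Cxcl5, had a difference of -1.25 ± 0.25 (SE, slide as a block, limma adjusted p = 0.236). Cxcr6, the receptor of Cxcl16, had -0.80 ± 0.19 and Cxcr3, the receptor of Cxcl9 and Cxcl10, had -0.77 ± 0.28. Ackr3, a scavenging receptor of Cxcl12, had 1.09 ± 0.41; it is the receptor of the 4 with a higher value in EP2KO and was added after its value was seen. Between the slides 5 of the 7 receptors were lower on slide 2 and 1 was higher by limma's test (18.2% and 25.1% of all features), with slide differences of -2.23 for Cxcr2, -0.87 for Cxcr3 and -0.86 for Cxcr6. Cxcr2 also stands on the neutrophil list.

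Among the CXC chemokines outside the 10 genes, 3 of 5 were tested and 0 passed for genotype or slide, and Cxcl15 and Cxcl17 were too dim. Pf4, the platelet chemokine, differed between EP2KO and WT by 0.27 ± 0.17 (SE, slide as a block) and Ppbp, the precursor of other platelet chemokines, by -0.05 ± 0.29. Cxcl12, the stromal ligand of Cxcr4, had 0.15 ± 0.76, with 1.38 on slide 1 and -1.09 on slide 2. A second Cxcl12 probe had log2 means of -2.16 in WT and -2.84 in EP2KO, the opposite order.

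The NF-κB, LPS and interferon lists hold signalling genes and other response genes. None of these passed for genotype in limma, and several passed between the slides. On the NF-κB and LPS response list 24 of 25 genes were tested, without Rel, and 0 passed for genotype. With the slide as a block 2 had an unadjusted p under 0.05 (7.34% of all features). On slide 2, 11 were lower and 5 higher (18.2% and 25.1% of all features), with a median slide difference of -0.50. Nfkbie, an inhibitor of NF-κB that NF-κB induces, had a slide difference of -1.57 ± 0.11 and Il1b, which encodes interleukin-1β, one of -2.80 ± 0.26 (SE), and Cd14, the LPS co-receptor, one of -1.24 ± 0.16. Their differences between EP2KO and WT were -0.37, -0.74 and -0.37. On the interferon list 25 of 27 genes were tested, without Ifnb1 and Mx1, and 0 passed for genotype. With the slide as a block 1 had an unadjusted p under 0.05 (7.34% of all features). On slide 2, 8 were lower and 4 higher (18.2% and 25.1% of all features), with a median of -0.31. Ifng, which encodes the inducer of Cxcl9, had a genotype difference of -0.60 ± 0.25 (SE, slide as a block, limma adjusted p = 0.67) and a slide difference of -2.02 ± 0.25 (limma adjusted p = 0.000932). It is the 1 gene counted above, and it entered the tests through WT. Its probe was well above background on 4 of 4 WT and 3 of 4 EP2KO arrays, so both differences include a dim value. Cd274, which encodes the interferon-induced ligand PD-L1, had 0.49 ± 0.22 for genotype and 1.12 ± 0.22 for the slide, and Ifnar1, a chain of the type I interferon receptor, -0.16 ± 0.09 and 0.37 ± 0.09.

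Enzymes that trim or shed chemokines and genes listed for the decay or stability of inflammatory transcripts did not pass for genotype either, with 0 of 7 and 0 of 8. Dpp4, which clips the N-terminus of Cxcl9, Cxcl10 and other chemokines, had a genotype difference of -0.80 ± 0.21 (SE, slide as a block, limma adjusted p = 0.356). Anpep, an aminopeptidase, had 0.68 ± 0.25, and Mmp8, a neutrophil collagenase, had 0.85 ± 0.37. On the mRNA decay list Zfp36, which binds AU-rich elements in transcripts such as those of Cxcl1 and Cxcl2, had -0.42 ± 0.18, Zfp36l1 had -0.24 ± 0.15 and Zfp36l2 had 0.10 ± 0.19. Over the enzymes 4 were higher and 3 lower on slide 2 by limma's test, and over the decay list 1 was higher and 2 were lower, where 25.1% of all features were called higher and 18.2% lower.

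The named genes most like each remaining chemokine over the 8 arrays, among 14476 genes, were Ank for Cxcl1 (r = 0.99), Mrpl42 for Cxcl2 (r = 0.99), Adam23 for Cxcl9 (r = 1.00), Nxn for Cxcl10 (r = 0.99), Ncs1 for Cxcl14 (r = 0.97) and Zfp458 for Cxcl16 (r = 0.98). These are descriptions of 8 arrays in 2 slides, and the highest of so many correlations is high by selection.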

How the data were processed

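The scanner files hold the authors' deposited intensity of each spot on a linear scale, background-corrected per the file headers, and not scaled between arrays. The file headers name Feature Extraction 10.7.1.1, and the submitters' processing notes Agilent Feature Extraction 9.1. The deposited series table held the same values (largest log2 difference 0). From these, log2 of the processed signal minus the 75th percentile of its array was computed. Of 44397 spots, 1377 control spots and flagged outliers were left out, and spots of 1 probe were averaged. RefSeq transcripts of the GRCm38.p6 gene table named 27508 of the 39429 probes. Kept were probes that the scanner software called well above background on each array of WT, of EP2KO or of both, and the brightest kept probe stood for its gene (20738 features). limma 3.58.1 in R 4.3.3 (two-sided, Benjamini-Hochberg over all features, threshold 0.05) compared genotypes with no block, slides with genotype as a term, and the genotype difference between slides. Fits were run on simulated data. For the genotype comparisons these held no genotype difference that varied with the slide, so they do not show how such genes are handled. Arrays of equal replicate number deviated together (r = 0.74, 0.12, 0.55 and 0.43), but also share a slide; about the means of genotype and slide r was -0.39 on slide 1 and -0.10 on slide 2. Alternatives covered background correction (normexp, offset 50, on the median spot signal), quantile scaling, filters, the mean of a gene's probes, slide and replicate blocks, single slides and each array left out. From each gene list up to 3 genes with the smallest unadjusted p under the slide block are named. Members and lists were chosen with earlier results of these data known.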

Additional observations from a re-analysis of the deposited data

How the results depend on the processing

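Over single chemokines 325 settings were tried, of which 308 kept the direction and 17 reversed it. For a gene with 1 probe, the blocks, the filters and the mean of its probes cannot change the estimate. The genotype difference of Cxcl5, for example, stayed at -2.84 in all of these. The 308 therefore includes settings that could not have reversed a direction. The EP2KO minus WT difference of Cxcl2 turned to -0.33 with the normexp background and to -0.25 on slide 2 alone, and ran from -0.35 to 0.34 with each array left out. On slide 1 alone the genotype difference turned for Cxcl10 (0.24), Cxcl13 (1.28) and Cxcl14 (0.52). With each array left out, that of Cxcl14 ran from -0.61 to 0.0047, the slide difference of Cxcl14 from -0.42 to 0.29, and the difference between slides in the genotype effect from -1.06 to 0.0474 for Cxcl2 and from -0.44 to 0.0187 for Cxcl16. The normexp background moved the median of all features to -0.12 for genotype and to 0.18 for the slide, and the members' medians to -0.61 and -0.86. Of all features, 2 passed for genotype without a block, 4 with the slide as a block, 0 with the replicate block, 0 on slide 1 alone, 217 on slide 2 alone and 0 to 4 with each array left out. The replicate block changed no call among the chemokines. Between the slides 8967 features passed, and 3534 with normexp. For the genotype effect by slide 3 passed, 0 with normexp, 1 with no filter, 14 with probes well above background on all 8 arrays, and 0 to 1442 with each array left out. Of the chemokines, 0 passed for genotype in every setting except slide 2 alone (1); 4 passed between slides, 1 with normexp, 5 with no filter (Cxcl3 included), 3 with probes well above background on all 8 arrays, and 3 (without EP2KO 1) to 5 (without WT 1) with each array left out; and 0 passed for the genotype effect by slide, 1 with probes well above background on all 8 arrays, and 0 to 1 with each array left out. Dim signal limits Cxcl3 and Cxcl9: a filter of well above background on all 8 arrays gives no value for either. Cxcl5 passes this filter, although its signal on EP2KO 4 lay near the lowest that was well above background there. In 20 groups of 4 arrays, 0 held a value far from the others by Dixon's test, where chance gives about 1. Each group spans both slides, and a difference between slides widens its range. The test could therefore hardly flag a single array, and the 0 does not show that none was aberrant.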
